A study of Mus musculus with 11 samples.

Results

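The 10 genes described here belong to the YAP-TEAD branch of the Hippo pathway: the cofactor genes Yap1 and Wwtr1, the DNA-binding partner gene Tead1, the target genes Ccn1, Ccn2, Ankrd1 and Nuak2, the feedback genes Amotl2 and Lats2, and the LIM-domain gene Ajuba. They were chosen by name, with earlier results of these data known, through the RefSeq accessions of each row. Ccn1 and Ccn2 are the current symbols of Cyr61 and Ctgf. Each of the 10 matched exactly 1 of the 23286 rows of the expression table, and all 10 were among the 11702 rows that reached 1 FPKM in at least 1 group and were compared.

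Expression was measured by polyA RNA-seq in mouse embryonic palatal mesenchyme cells (MEPMs), primary connective-tissue precursors of the palate taken at embryonic day 13.5. Every culture was grown in 10% serum and then kept overnight in 0.1% serum. For 1 h, cells then received FGF1 at 50 ng/mL together with heparin at 1 µg/mL (3 libraries) or PDGFA at 30 ng/mL (4 libraries), and serum-starved cells without ligand served as controls (4 libraries). Each gene has 1 value per group in FPKM, a fragment count divided by transcript length and library total, with a lower and an upper bound that are printed in brackets. No value per library was used, so no replicate SD or p-value stands behind any statement, and the sequencing depth is unknown. Nothing in the labels says whether the libraries of a group came from separate litters or cultures. A gene is called higher or lower when the bounds of the groups compared lie apart. Heparin was given in the labels only with FGF1, and its effect cannot be told apart from that of FGF1. The doses of the ligands differed as well.

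YAP1 and WWTR1 (also called TAZ) do not bind DNA themselves. When the kinases LATS1 and LATS2 phosphorylate them they are kept in the cytoplasm, and when they are not phosphorylated they enter the nucleus and activate genes through TEAD factors. Cell stretch, a spread shape, actin tension and serum lipids are known to favour the nuclear state. The matricellular proteins CCN1 and CCN2 and the repeat protein ANKRD1 are widely used readouts of this activity. YAP1 and WWTR1 activity itself was not measured here, and its part in the members' folds was not tested. LATS2 and AMOTL2 restrain YAP1 and are themselves targets, which makes a negative feedback loop, while AJUBA family proteins can hold LATS kinases back.

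TEAD factors recognise the letters GGAATG, and the promoter windows of the genes are shown because this motif stood in every member gene that had one. RefSeq windows of build GRCm38.p6, the assembly also named mm10, covered 250 bases before to 50 bases after a start site. They were at hand for 7 of the 10 genes (Ccn1, Ankrd1, Amotl2, Lats2, Ajuba, Yap1 and Wwtr1), with 9 windows in all. Ccn2, Nuak2 and Tead1 had no window, so the motif was not searched in Ccn2 and Nuak2, the members called below. The motif, searched on both strands, was found in 8 of these windows and in all 7 genes, against 14.6% of the 32544 distinct mouse windows of the same length. The window without it was the downstream one of the 2 Lats2 windows. The genes were picked as TEAD targets or partners, so the motif is no independent observation, and a match is a run of letters and not a shown binding site. The 9 distinct sites are given with 12 bases on each side, each read on the strand that carries GGAATG, which is in capitals.
Ccn1, chr3:145650071-145650100, plus strand: tcaaacatctcaGGAATGttggttggcgcg
Ankrd1, upstream site, chr19:36120037-36120066, minus strand: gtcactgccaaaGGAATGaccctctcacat
Ankrd1, downstream site, chr19:36119950-36119979, minus strand: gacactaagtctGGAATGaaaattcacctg
Amotl2, chr9:102717727-102717756, minus strand: gctgctatgccaGGAATGtgagagtttcag
Lats2, chr14:57746102-57746131, minus strand: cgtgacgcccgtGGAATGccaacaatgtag
Ajuba, upstream site, chr14:54577830-54577859, plus strand: gaggggcactgtGGAATGtatccatcaacg
Ajuba, downstream site, chr14:54577808-54577837, plus strand: ttgtttacagttGGAATGcgcggaggggca
Yap1, chr9:8004720-8004749, minus strand: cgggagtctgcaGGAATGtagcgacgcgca
Wwtr1, chr3:57576029-57576058, minus strand: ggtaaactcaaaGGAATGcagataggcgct

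Counted from the start site, the first base of the motif lay at −103 in Ccn1, −65 in Amotl2, −141 in Yap1 and −136 in Wwtr1, where the second, overlapping window holds the same site. Ankrd1 had a motif at −210 and another at −123, and Ajuba at −186 and −164. In Lats2 the motif lay behind the start site, from base 5. An exact AP-1 motif (TGANTCA, both strands) was in none of the 9 windows, against 7.79% of all windows. A CArG box, the site of serum response factor, was also in none, against 1.64%. At shares this low, none in 9 windows is no result about these genes, and bases further upstream were not searched. The letters TATAAA, on either strand, were in 1 of the 9, that of Ccn1, against 13.6% of all windows. The 250 bases before the start are shown whole for Ccn1 and Ankrd1, the members with a window whose folds were near 2 with both ligands. They are read 5′ to 3′ on the strand of the gene, with GGAATG (in Ccn1 as its reverse complement) and TATAAA in capitals.
Ccn1, chr3:145649986-145650235, minus strand: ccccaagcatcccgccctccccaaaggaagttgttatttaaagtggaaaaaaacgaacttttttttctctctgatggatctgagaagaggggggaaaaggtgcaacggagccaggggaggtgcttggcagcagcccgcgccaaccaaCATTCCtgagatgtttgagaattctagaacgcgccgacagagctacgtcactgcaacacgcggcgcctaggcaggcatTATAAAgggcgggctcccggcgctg
Ankrd1, chr19:36119845-36120094, minus strand: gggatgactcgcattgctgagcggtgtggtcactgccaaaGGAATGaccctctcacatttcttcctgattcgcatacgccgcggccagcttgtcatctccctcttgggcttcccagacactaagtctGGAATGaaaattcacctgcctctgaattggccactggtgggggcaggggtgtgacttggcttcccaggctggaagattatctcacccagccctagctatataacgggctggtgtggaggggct

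**Figure D1:**
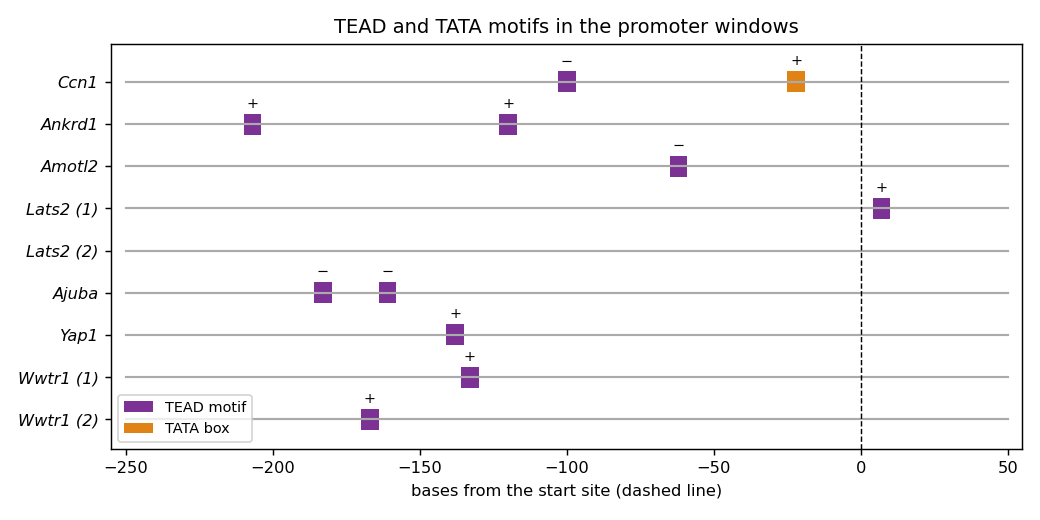
Position of the GGAATG motif (purple) and of TATAAA (orange) in the RefSeq promoter windows, in bases from the start site, with the strand of the match relative to the gene above each mark. Of the 9 windows 8 hold the TEAD motif, and numbers in brackets tell apart the windows of genes with 2 start sites.

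The factor genes had levels close to each other, and none was called different between groups. In these bulk samples, fewer cells that express a gene and less of its RNA per cell cannot be told apart. Yap1 had 52.1 FPKM [35.8 to 68.4] with FGF1, 58.7 [29.6 to 87.8] with PDGFA and 50.0 [39.3 to 60.8] in starved cells. Wwtr1 had 48.5 FPKM [33.2 to 63.8] with FGF1, 45.8 [24.1 to 67.6] with PDGFA and 42.6 [33.5 to 51.6] in starved cells. In each of the 3 groups the bounds of the cofactor genes overlapped, with Yap1 at 1.07 times the FPKM of Wwtr1 with FGF1, 1.28 times with PDGFA and 1.18 times in starved cells. Tead1 had 50.3 FPKM [33.3 to 67.3] with FGF1, 50.1 [23.95 to 76.3] with PDGFA and 51.4 [39.4 to 63.3] in starved cells. Its log2 folds were −0.03 [−0.62 to 0.55] with FGF1 and −0.04 [−0.85 to 0.78] with PDGFA over starved cells. These intervals combine the deposited bounds, taken as 95% bounds, and a change inside them could not be called.

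Among the TEAD family Tead1 and Tead2 had the highest values. Per transcript length, Tead1 made up 35.1% of the summed FPKM of the 4 TEAD genes with FGF1, 31.6% with PDGFA and 36.9% in starved cells, and Tead2 38.7% with FGF1, 41.9% with PDGFA and 37.8% in starved cells. Tead3 had 33.5 FPKM [22.8 to 44.1] with FGF1, 37.8 [19.6 to 56.0] with PDGFA and 31.3 [24.7 to 38.0] in starved cells. Its bounds overlapped those of Tead1 with either ligand and lay apart from them only in starved cells. Tead4 had the lowest level of the family, with 4.00 FPKM [2.51 to 5.50] with FGF1, 4.24 [1.91 to 6.58] with PDGFA and 3.98 [2.89 to 5.06] in starved cells, and these bounds lay apart from those of Tead1 in all 3 groups.

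**Figure D2:**
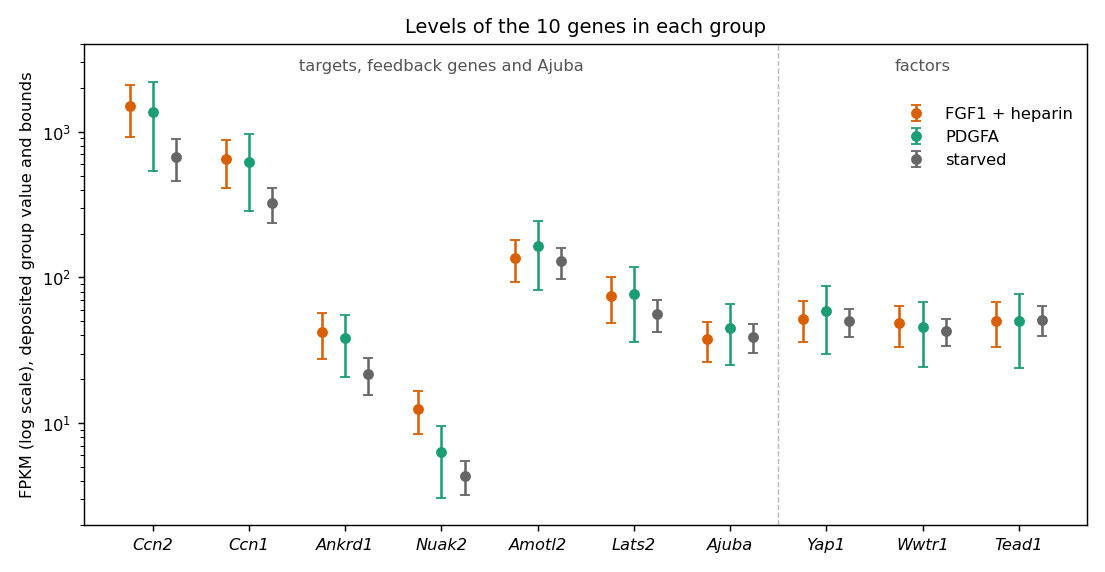
FPKM of each gene on a log axis, as the deposited group value (point) with its lower and upper bound (bars), for FGF1 with heparin, PDGFA and starved cells. Ccn2 and Ccn1 stand highest in every group and Nuak2 lowest, and the 3 factor genes on the right have nearly level values across groups.

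The order of the levels, which FPKM allows since it is per transcript length, was led by Ccn2, Ccn1, Amotl2 and Lats2 in all groups. In starved cells the bounds of these 4 lay apart from one to the next, while Lats2, Tead1, Yap1, Wwtr1 and Ajuba followed with overlapping neighbours, and Ankrd1 and Nuak2 each stood apart at the low end. With either ligand the bounds of Ankrd1 overlapped those of Ajuba, its neighbour, and those of Amotl2 overlapped those of Lats2. With PDGFA those of Ccn2 and Ccn1 overlapped as well.

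The CCN genes encode secreted matricellular proteins that bind integrins and heparan sulfate. Ccn2, the connective tissue growth factor gene, had 1509 FPKM [917 to 2101] with FGF1, 1372 [537 to 2204] with PDGFA and 673 [459 to 888] in starved cells. It was called higher with FGF1, 2.24-fold, since the FGF1 lower bound lay just above the starved upper bound, and this call ended when the trend of folds on GC content, length and level was subtracted. Part of the Ccn2 exons overlap an antisense gene, so its values carry that uncertainty too. Ccn1 had 649 FPKM [409 to 884] with FGF1, 624 [285 to 962] with PDGFA and 326 [235 to 414] in starved cells. Its FGF1 value was 1.99 times the starved value, and the FGF1 lower bound minus the starved upper bound was −4.54 FPKM, so it was not called. Of all compared rows, 99.4% had a lower log2 fold with FGF1 than Ccn1, and 99.6% a lower one than Ccn2. With PDGFA the ratios to starved cells were 1.91 for Ccn1 and 2.04 for Ccn2, with bounds that overlapped. The ratio of Ccn2 to Ccn1 was 2.32 with FGF1, 2.20 with PDGFA and 2.06 in starved cells.

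Ankrd1 encodes a nuclear ankyrin-repeat protein best known from heart and muscle. It had 42.1 FPKM [27.4 to 56.6] with FGF1, 38.1 [20.7 to 55.5] with PDGFA and 21.8 [15.6 to 27.8] in starved cells, which gives ratios of 1.93 for FGF1 and 1.75 for PDGFA over starved cells. The FGF1 lower bound minus the starved upper bound was −0.388 FPKM, which narrowly missed a call. Skeletal muscle markers had their highest values in the PDGFA group. Mylpf had 2.23 FPKM [0.908 to 3.43] with FGF1, 5.30 [1.61 to 8.98] with PDGFA and 2.49 [1.11 to 3.73] in starved cells. Tnni1 had 0.414 FPKM [0.0874 to 0.74] with FGF1, 2.68 [0.401 to 4.97] with PDGFA and 0.704 [0.262 to 1.15] in starved cells. For both, the bounds of all groups overlapped. Of the 3 skeletal muscle markers compared, 0 were called in any comparison, and Myod1 was too low to be compared. Among all compared rows, 0.538% were called higher with FGF1, 0.308% higher with PDGFA and 0.12% between the ligands. A count of 0 among 3 genes is thus no result about them. The 4 markers of that list (Myod1, Myog, Mylpf and Tnni1) summed to 3.54 FPKM with FGF1, 9.81 with PDGFA and 3.95 in starved cells, and none was listed at 0. The part of muscle transcripts in the Ankrd1 value of any group was not tested.

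Nuak2, which encodes an AMPK-related kinase, had the lowest level of the 10 genes in every group and the largest fold with FGF1. It had 12.5 FPKM [8.48 to 16.6] with FGF1, 6.29 [3.05 to 9.53] with PDGFA and 4.33 [3.18 to 5.49] in starved cells. It was called higher with FGF1, 2.89-fold, with a log2 fold of 1.43 [0.87 to 1.998]. With PDGFA the log2 fold was 0.49 [−0.28 to 1.26], and the bounds overlapped those of starved cells. FGF1 cells had 1.99 times the Nuak2 value of PDGFA cells, a log2 fold of 0.94 [0.12 to 1.76], but the FGF1 lower bound lay under the PDGFA upper bound of 9.53 FPKM, so the ligands were not called different.

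Amotl2 and Lats2, the feedback genes, were not called in any comparison, nor was Ajuba. Lats2 had 74.7 FPKM [48.7 to 101] with FGF1, 77.0 [35.9 to 118] with PDGFA and 55.8 [42.1 to 69.5] in starved cells, a ratio of 1.34 for FGF1 and 1.38 for PDGFA over starved cells. These values include any reads of a gene that overlaps Lats2 on the same strand. The paralogous kinase gene Lats1 had 15.9 FPKM [11.02 to 20.7] with FGF1, 15.0 [8.29 to 21.7] with PDGFA and 16.6 [13.1 to 20.04] in starved cells. Lats2 thus stood at 4.71 times Lats1 with FGF1, 5.13 times with PDGFA and 3.37 times in starved cells, with bounds apart in each group. Amotl2, an angiomotin-type protein that binds YAP1 at junctions, had 137 FPKM [92.9 to 180.1] with FGF1, 163 [82.4 to 244] with PDGFA and 129 [98.0 to 159] in starved cells. Ajuba had 37.7 FPKM [26.1 to 49.2] with FGF1, 45.1 [24.9 to 65.3] with PDGFA and 38.9 [30.2 to 47.5] in starved cells. For these 3 genes the bounds of all groups overlapped.

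Counted over the members, 2 of 10 were called higher with FGF1 than in starved cells (Nuak2 and Ccn2) and 0 lower, against 0.538% of all compared rows called higher and 0.0171% called lower. With PDGFA 0 of 10 were called, against 0.308% of rows called higher. Between FGF1 and PDGFA 0 of 10 were called, against 0.12% of rows called in either direction. The members were chosen with earlier results of these data known, so setting these counts beside all rows is a description and no test. The median log2 fold of the 10 genes was 0.30 for FGF1 and 0.40 for PDGFA over starved cells, beside 0.02 for FGF1 and 0.00 for PDGFA over all compared rows. In the 7 genes other than the factors it was 0.93 for FGF1 and 0.49 for PDGFA, and in the 3 factor genes 0.06 for FGF1 and 0.11 for PDGFA. With the trend on GC content, length and level subtracted, the median of the 10 genes was 0.26 for FGF1 and 0.24 for PDGFA. That of the 7 genes was then 0.86 for FGF1 and 0.42 for PDGFA, and that of the 3 factor genes 0.01 and 0.15. Both comparisons share the starved cells, so a low or high starved value moves both folds of a gene.

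**Figure D3:**
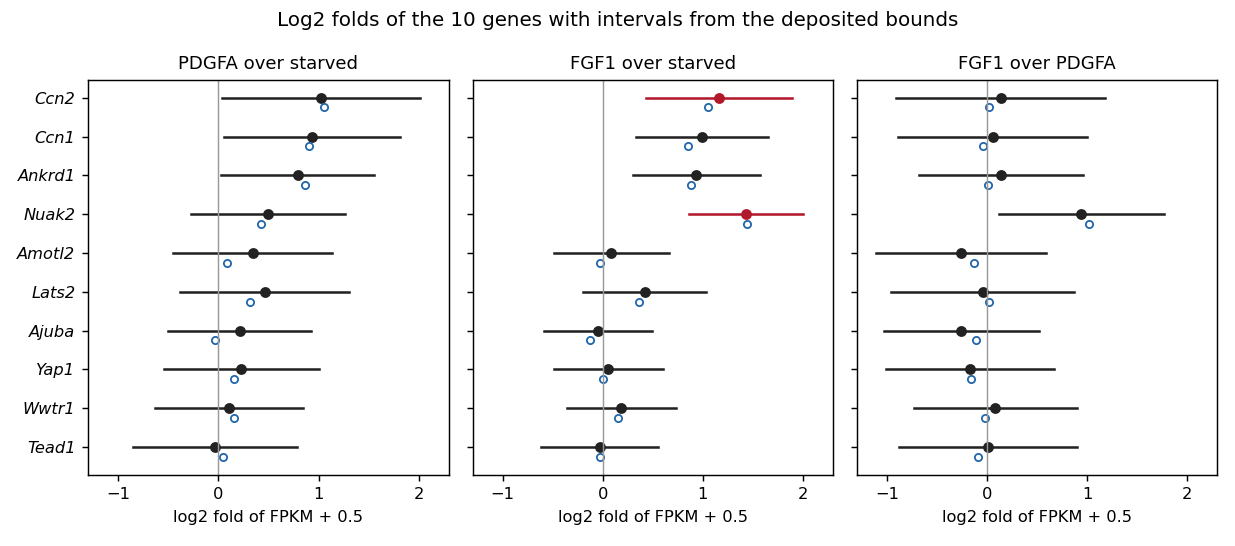
Log2 folds of FPKM + 0.5 (filled points) with intervals made from the deposited bounds (lines) for PDGFA over starved, FGF1 over starved and FGF1 over PDGFA, and the fold after removal of the trend on GC content, length and level (open blue points). Red marks the calls, Ccn2 and Nuak2 with FGF1. The factor genes lie near 0 in every panel.

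Apart from Nuak2, the calls turned on narrow margins. For FGF1 against starved cells, the log2 ratio of the FGF1 lower bound to the starved upper bound was 0.63 for Nuak2, 0.05 for Ccn2, −0.02 for both Ccn1 and Ankrd1, and −0.51 or less for the other 6 genes. For PDGFA it was −0.43 for Ankrd1, the highest, and −1.40 for Tead1, the lowest. The deposited bounds lay 30.7% to 39.2% of the FPKM to either side of the members' values with FGF1, 44.7% to 60.7% with PDGFA and 21.2% to 31.8% in starved cells. If a call is made where the combined interval of the fold excludes 1, the members higher with FGF1 were Ccn1, Ccn2, Nuak2 and Ankrd1, 4 of 10 against 1.04% of rows. By that wider rule those higher with PDGFA were Ccn1, Ccn2 and Ankrd1, 3 of 10 against 1.54% of rows, with log2 intervals that began at 0.06 for Ccn1, 0.04 for Ccn2 and 0.03 for Ankrd1. Nuak2 was then also higher with FGF1 than with PDGFA, 1 of 10 against 0.128%. These counts too come from members chosen with earlier results known, and are descriptions.

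**Figure D4:**
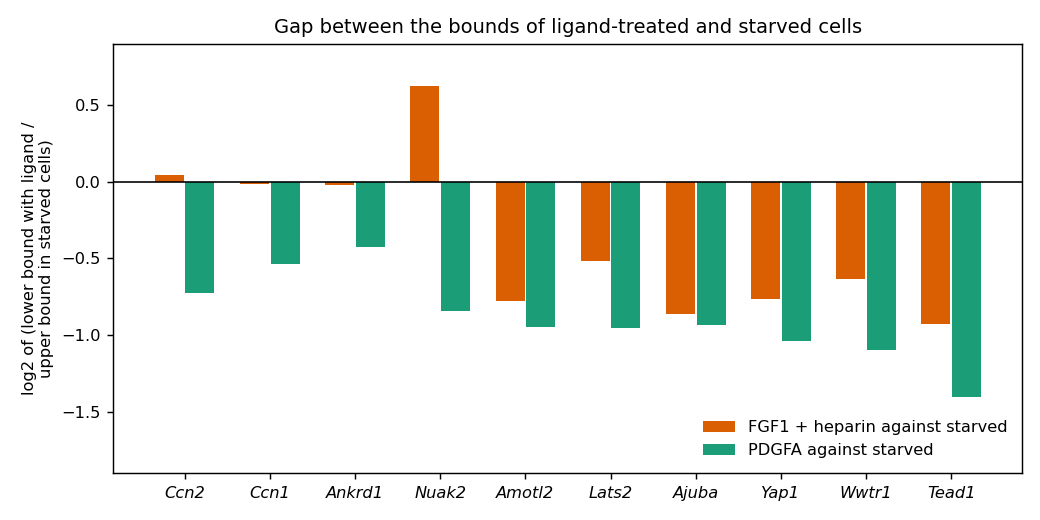
Log2 of the lower bound with ligand divided by the upper bound in starved cells, for FGF1 with heparin and for PDGFA. Bars above 0 are calls. Nuak2 and Ccn2 extend above 0 with FGF1, Ccn1 and Ankrd1 end just under it, and every PDGFA bar lies below it.

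Over the whole table the folds differed with transcript base composition. The median log2 fold in the octiles of rows with the lowest and the highest GC content was 0.00 and 0.07 for FGF1 and −0.19 and 0.24 for PDGFA. The members with the highest transcript GC were Ajuba (58.3%) and Amotl2 (56.6%), and their PDGFA log2 folds of 0.21 and 0.34 became −0.04 and 0.09 once a smooth fit to GC content, transcript length and level was subtracted. Ccn2 (51.8% GC), Ccn1 (52.7%) and Ankrd1 (47.9%) kept PDGFA log2 folds of 1.06, 0.90 and 0.87. With FGF1 and the trend subtracted, Ccn2 had a log2 fold of 1.05 and its call ended, while Nuak2 (54.2% GC) had 1.44 and remained called, 1 member against 0.527% of rows. The part of this trend in the members' folds was not tested further. The FGF1 log2 folds were then 0.86 for Ccn1 and 0.88 for Ankrd1, and that of Amotl2 was −0.03 in place of 0.08.

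**Figure D5:**
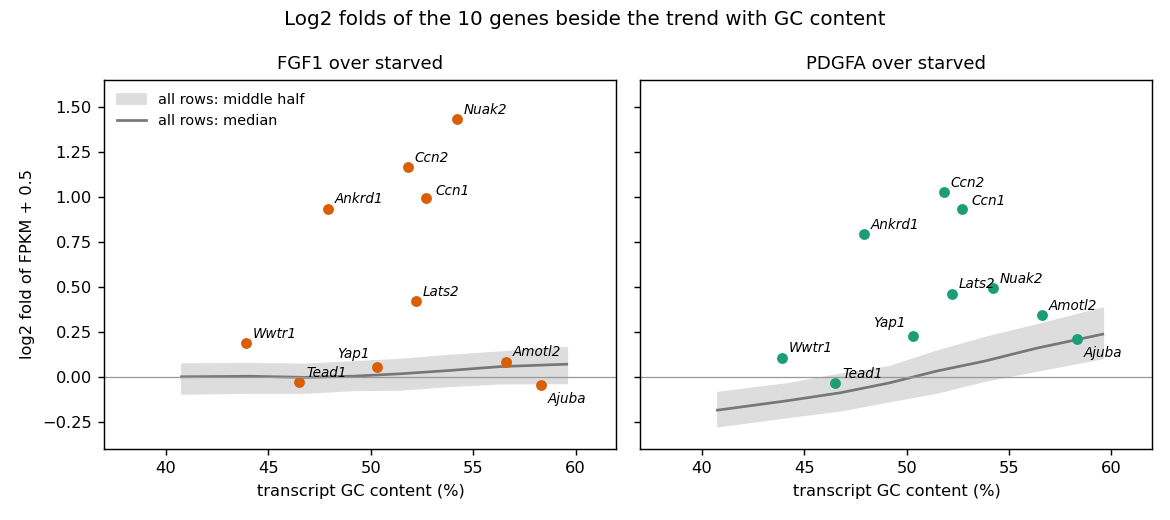
Log2 fold of each gene over starved cells against the GC content of its longest transcript, for FGF1 (left) and PDGFA (right), with the median and the interquartile range of all compared rows by GC octile in grey. With PDGFA, Ajuba and Amotl2 lie on or near the grey band, while Ccn1, Ccn2 and Ankrd1 stand above it in both panels.

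The 4 genes with the largest FGF1 folds differ in size from the factor genes. On mm10, Ccn1 spans 3015 bp (chr3:145646971-145649985, minus strand) and Ccn2 3241 bp (chr10:24595442-24598682, plus strand), each with 5 exons in its longest GENCODE M21 transcript. Ankrd1 spans 7880 bp (chr19:36111965-36119844, minus strand) and Nuak2 17364 bp (chr1:132316125-132333488, plus strand). The factor genes are longer: Yap1 spans 72596 bp (chr9:7932001-8004596), Wwtr1 120267 bp (chr3:57455644-57575910), both on the minus strand, and Tead1 227486 bp (chr7:112679320-112906805) on the plus strand. Span did not order all of the genes by fold, since Ajuba, at 10193 bp (chr14:54567469-54577661), and Amotl2, at 15614 bp (chr9:102717804-102733417), are shorter than Nuak2 and had lower FGF1 folds. Across the 10 genes the Spearman correlation of span with the log2 fold was −0.49 for FGF1 and −0.83 for PDGFA. Over 11579 compared rows it was −0.16 for FGF1 and −0.17 for PDGFA. For transcript length the correlation was −0.59 for FGF1 and −0.79 for PDGFA across the 10 genes. Over the 11579 rows the correlation with length was −0.24 for FGF1 and −0.18 for PDGFA. The parts of span and length were not tested apart. Genes are not replicates and the folds share the starved group, so these are descriptions.

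Transcripts of overlapping genes limit the values of Ccn2 and Lats2. Of the 31-base words of the Ccn2 transcript, 20.7% also occur, on the opposite strand, in other annotated genes, nearly all in Gm15270, which overlaps 541 bases of its exons. For Lats2, at chr14:57689662-57746123, 53.0% occur in Gm49361, an overlapping gene on the same strand. Neither Gm15270 nor Gm49361 was found in the table. Whether the reads were assigned by strand is not stated, so reads of Ccn2 and of its antisense partner may not have been told apart, and for Lats2 strand would not separate them. The other 8 genes shared 0.0% to 2.79% of their words.

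The rows whose pattern lay nearest to the CCN genes were sought among 11440 rows with at least 1 FPKM in starved cells, by the distance between rows in the plane of the FGF1 and PDGFA log2 folds. The 5 nearest to Ccn1 were Arid5a, F3, Sertad1, Dusp10 and Ankrd1, at distances of 0.08 to 0.155. Those nearest to Ccn2 were Dusp10, F3, Pim1, Hes1 and Noct, at 0.10 to 0.17. Ccn1 was the row in place 8 for Ccn2, and Ccn2 that in place 9 for Ccn1. Nuak2, with its lower PDGFA fold, came in place 98 for Ccn1 and place 51 for Ccn2. The measure rests on 3 group values per row and a shared starved value, and it leaves the bounds out. The interval of the Nuak2 PDGFA log2 fold, −0.28 to 1.26, covers the PDGFA log2 folds of Ccn1 (0.93) and Ccn2 (1.03). The places are thus not resolved by the bounds.

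Other genes reported as YAP-TEAD targets were read from a list of 29, of which 28 had a row and 26 were compared. This list was also chosen with earlier results of these data known. With FGF1, 3 of the 26 were called higher and 0 lower, F3 and Myc among those higher, against 0.538% of all compared rows called higher and 0.0171% called lower. The tissue factor gene F3 had 194 FPKM [126 to 262] with FGF1, 178 [89.4 to 266] with PDGFA and 91.7 [67.4 to 115] in starved cells. Myc, a growth-promoting transcription factor gene, had 53.4 FPKM [36.99 to 69.9] with FGF1, 41.1 [21.6 to 60.6] with PDGFA and 26.1 [20.5 to 31.8] in starved cells. F3 and Myc are also well-known targets of growth factor signalling outside the Hippo pathway. With PDGFA 0 of the 26 were called, against 0.308% of rows called higher, and 2 of the 26 were called where the fold interval had only to exclude 1, against 1.54% of rows higher by that rule. The PDGFA log2 folds were 0.95 for F3 and 0.68 for the stress gene Gadd45b. The median log2 fold of the 26 was 0.08 for FGF1 and 0.14 for PDGFA, and with the trend subtracted 0.02 for FGF1 and 0.06 for PDGFA. Among the genes of that list without a comparison was Thbs1, the thrombospondin gene, which is listed at 0 with a failed estimate in FGF1 and starved cells and at 1997 FPKM with PDGFA, so no fold is given.

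Of the 3 other CCN genes compared, which encode relatives of CCN1 and CCN2, 0 were called. The shares of all compared rows called were 0.538% higher with FGF1, 0.308% higher with PDGFA and 0.12% between the ligands. A count of 0 among 3 genes thus tells little about them. Ccn4 had 141 FPKM [93.7 to 188] with FGF1, 109 [55.2 to 163] with PDGFA and 132 [99.3 to 164] in starved cells. Ccn3 had log2 folds of 0.01 for FGF1 and −0.32 for PDGFA over starved cells, and Ccn5 −0.07 for FGF1 and −0.23 for PDGFA. Ccn6 was under 1 FPKM in all groups and was not compared. The differences between these genes and Ccn1 or Ccn2 in fold were not tested.

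Of 18 compared genes of the kinase cascade and its scaffolds, such as Stk3, Stk4, Sav1, Mob1a and Nf2, 0 were called in any comparison. Of all compared rows only 0.538% were called higher with FGF1, 0.308% higher with PDGFA and 0.12% between the ligands. A count of 0 among 18 genes, or in the shorter lists below, is therefore no result about these genes. The median log2 fold of the 18 was 0.02 for FGF1 and 0.01 for PDGFA. Rassf1, a scaffold of the MST kinases, had the largest log2 fold of that list with both ligands, 0.24 for FGF1 and 0.38 for PDGFA. The WW-domain scaffold gene Wwc2 had 0.13 for FGF1 and 0.27 for PDGFA, its paralogue Wwc1 0.07 for FGF1 and 0.32 for PDGFA, and Frmd6 0.21 for FGF1 and 0.10 for PDGFA. Of 10 compared junction and cadherin genes 0 were called, with medians of −0.08 for FGF1 and 0.15 for PDGFA. The AJUBA relative Wtip had 26.0 FPKM [17.1 to 34.3] with FGF1, 32.9 [17.0 to 48.8] with PDGFA and 20.5 [14.9 to 26.0] in starved cells, a log2 fold of 0.34 for FGF1 and 0.67 for PDGFA. The giant cadherin gene Fat4 had 8.68 FPKM [6.01 to 11.3] with FGF1, 12.5 [5.99 to 19.02] with PDGFA and 9.91 [7.82 to 12.002] in starved cells. Dchs1, which encodes a partner cadherin of FAT4, had log2 folds of −0.13 for FGF1 and 0.31 for PDGFA, and Amotl1, a paralogue of Amotl2, −0.14 for FGF1 and 0.00 for PDGFA. Of the 5 compared TEAD and VGLL genes beside Tead1 0 were called either. Tead2 had log2 folds of 0.07 for FGF1 and 0.33 for PDGFA, and Vgll4, a TEAD-binding repressor of YAP1, −0.02 for FGF1 and 0.30 for PDGFA. The PDGFA median of these 5 genes was 0.27, and 0.12 with the trend subtracted. The trend-subtracted PDGFA log2 folds were 0.27 for Rassf1, 0.23 for Wwc2, 0.11 for Wwc1, 0.08 for Frmd6 and 0.29 for Wtip. They were 0.15 for Dchs1, −0.05 for Amotl1, 0.16 for Tead2 and 0.25 for Vgll4, while that of Fat4 was 0.63 in place of 0.32. Vgll3, which encodes a TEAD cofactor, was the highest of them with 105 FPKM [71.6 to 138] with FGF1, 94.5 [49.7 to 139] with PDGFA and 92.5 [70.9 to 114] in starved cells.

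The labelled mesenchyme was checked against its markers. Of 8 mesenchyme markers 7 had an estimate, and Vim, Col1a2, Prrx1, Twist1 and Msx1 had at least 48.7 FPKM in every group, while Pdgfra and Osr2 stood between 2.46 and 3.87 FPKM. The remaining gene, Col1a1, had a failed estimate in all groups. The 6 epithelial markers summed to 4.58 FPKM with FGF1, 5.72 with PDGFA and 3.41 in starved cells, of which Krt18 made up most, and 5 of the 6 were under 1 FPKM in each group, none at 0. The 4 endothelial markers summed to 3.60 FPKM with FGF1, 4.08 with PDGFA and 3.47 in starved cells. Of 4 blood markers 1 was found, Ptprc, which had at most 0.0613 FPKM in any group, and of 4 neuron and glia markers only Tubb3 passed 2 FPKM, at 44.8 FPKM with FGF1, 49.8 with PDGFA and 36.99 in starved cells. The parts of these cells in the members' values were not tested.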

How the data were processed

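The submitters' processing notes name CASAVA, TopHat and Cuffdiff and the mm10 build. The sources used here give neither versions and settings nor the annotation or the handling of strand and multiply matching reads. The authors deposited FPKM values, 1 per group and row, with bounds whose confidence level is not stated. For fold intervals 95% was assumed. FPKM depends on the assumed transcript length and on the library total.

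The test laid down for group values was used: a row was called where the deposited bounds lay apart and each value lay inside its own bounds, over all 11702 compared rows. The limma fit laid down for values per library was not used. Log2 folds were taken on FPKM + 0.5, which understates changes of low genes. The 2 rows with failed estimates were left out. Row accessions were named through RefSeq (GRCm38.p6) for 22992 rows and GENCODE M21 for 126, while 168 stayed unnamed. GC content and length came from the longest GENCODE transcript, known for 98.95% of compared rows, and a robust cubic regression gave the trend. Alternatives covered the pseudocount, the minimum, the scaling, the call rule and the trend. The members, lists and rules were chosen with earlier results of these data known. Genes named from a list were those called and the 3 largest folds per ligand. One gene that this rule names is not reported here. Lats1, Tead4, Thbs1 and Ccn6 were named after their values were seen. The fold, the call rule and the removal of the trend were tested on simulated group values, with less noise than the deposited bounds imply. The other steps were not simulated. Work was done with matplotlib 3.10.9, numpy 2.4.6, statsmodels 0.14.6, pandas 2.3.3 and scipy 1.17.1 under Python 3.11.15.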

Additional observations from a re-analysis of the deposited data

How the results depend on the processing

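No paired analysis was possible because the table read here holds 1 value per group, and for the same reason no fit without single replicates was run. Of the calls in the members, Nuak2 with FGF1 held under all 8 alternatives, and Ccn2 with FGF1 under all but the removal of the trend. That removal left 1 member called with FGF1, and the log2 fold of Ccn2 was then 1.05. The pseudocount does not enter the rule on bounds, and every member passed 5 FPKM in at least 1 group. The alternatives for the pseudocount and the minimum therefore could not change a call among the members. Calling every fold interval that excludes 1 gave 189 rows and 3 members for PDGFA against starved cells, 149 rows and 4 members for FGF1 against starved cells, and 113 rows and 1 member for FGF1 against PDGFA, in place of 36 and 0, 65 and 2, and 14 and 0. By that rule 2 of the 26 other target genes were called for PDGFA, in place of 0. A minimum of 5 FPKM left 8 rows called for FGF1 against PDGFA. Pseudocounts of 0.1 and 1, no minimum, median-of-ratios scaling and a 2-fold minimum changed no call among the members. The cause of these differences was not tested. The width of the deposited bounds, largest with PDGFA, limits what could be called.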
